A study of Oryza sativa with 4 samples.

Results

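The leaf transcripts of the rice mutant hd1-3 were set against those of the wild type Zhonghua11 (WT) under long day (LD) condition, with 1 Affymetrix array per genotype, so 2 of the 4 arrays of the series. A probe set, the group of short probes for 1 transcript, was used where the brighter of its 2 LD signals was 500 or more and it was no control. That left 14332 of 57194 probe sets (25.1%), which were matched to 10199 genes where a single gene was known. The Hd1 gene of hd1-3 is disrupted at more than 1 place and not functional, and heading in this line does not depend on day length. WT is the japonica cultivar it was compared with.

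Both genotypes were grown as 5-day-old seedlings and then for 30 days in a chamber at 28 °C, and leaves were taken at 35 days of age. Under LD condition (15 h light and 9 h dark) leaves were taken 5 h after light. The other 2 arrays held hd1-3 and WT under short day (SD) condition (11.5 h light and 12.5 h dark), with leaves taken 3 h after light, so day length and sampling time cannot be told apart. The sources used here do not say whether leaves of several plants were pooled. With 1 array per group no fold has a replicate check, and no p value is given.

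Hd1, a transcriptional regulator of the CONSTANS type, promotes flowering under short days and delays it under long days, acting on the florigen gene Hd3a in the leaf. The leaf under study is otherwise the site of photosynthesis, of metal and nitrogen handling and of defence against pests, and genes of these processes were described beside the flowering genes.

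A fold is a log2 ratio, hd1-3 over WT, after 1 was added to each signal. Under LD condition 448 of the 14332 probe sets (3.13%) were above 2-fold, 209 higher in hd1-3 (1.46%) and 239 lower (1.67%). The median fold was -0.00, so the arrays were centred on each other. The share above 2-fold was 3.96% where the brighter signal was between 500 and 1000, 3.70% between 1000 and 2000, 2.11% between 2000 and 5000 and 1.88% at 5000 or more. The middle 90% of folds lay within -0.66 and 0.64 in the dimmest of these ranges and within -0.37 and 0.57 in the brightest. A 2-fold difference therefore lay outside the bulk of probe sets at every signal.

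**Figure D1:**
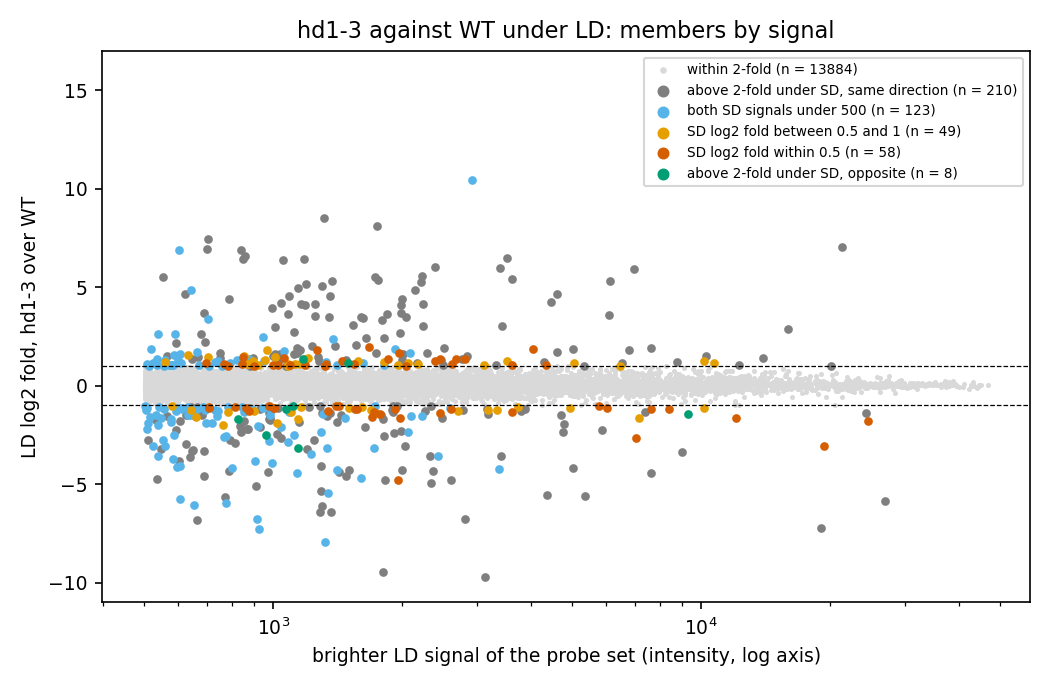
LD log2 fold of hd1-3 over WT (vertical axis) against the brighter LD signal (horizontal log axis) for the 14332 probe sets, 1 point each, coloured by what the SD pair showed, with dashed lines at 2-fold. The 448 coloured points lie outside a grey band of 13884 probe sets that narrows as the signal grows.

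The limits cut through a continuous range. At the signal limit LOC9266408 was just inside, with 488 in hd1-3 and 500.2 in WT, and LOC4335013 just outside, with 499.8 in hd1-3 and 470.1 in WT. At 2-fold, LOC4347593 was just inside with 883 in hd1-3 and 438 in WT, and LOC4352307 just outside with 796 in hd1-3 and 398 in WT. Among lower genes LOC4352116 was just inside with 248 in hd1-3 and 501 in WT, and LOC4334913 just outside with 2626 in hd1-3 and 5240 in WT.

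The arrays of the LD pair were alike in depth of signal, with 13619 probe sets of hd1-3 and 13618 of WT at 500 or more. As a sign of RNA quality, the 3' over 5' signal ratio of a GAPDH control was 4.25 in hd1-3 and 1.48 in WT under LD condition, and 4.16 in hd1-3 and 1.64 in WT under SD condition. The GAPDH 3' signal was 19599 in hd1-3 and 19499 in WT under LD condition, and the middle one 15115 in hd1-3 and 15377 in WT. The 5' signal was 4613 in hd1-3 and 13192 in WT under LD condition, and 5006 in hd1-3 and 11601 in WT under SD condition. For the actin, cyclophilin and ubiquitin controls the 3' over 5' ratio in hd1-3 was 0.80 to 1.07 times that in WT under LD condition. The part of these control differences in the folds was not tested. Of the leaf mesophyll markers, genes of carbon fixation and light harvesting, all 5 were at 500 or more with folds between -0.15 and 0.08. Of 8 flower markers none reached 500 and 7 had both LD signals under 100, with a summed signal of 530 in hd1-3 and 220 in WT under LD condition and 551 in hd1-3 and 292 in WT under SD condition. The seed markers summed to 4156 in hd1-3 and 3715 in WT under LD condition, with GLB and GLUA2 as the 2 of 7 at 500 or more, while 3 pollen markers and the root marker YSL15 were under 100 on both LD arrays. The shoot meristem markers were not matched to a probe set.

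The SD pair was then asked for each of the 448 differences. In 123 of them (43 higher and 80 lower in hd1-3 under LD condition) both SD signals were under 500, so they were counted apart as dim under SD. Of the other 325, 210 (64.6%) were above 2-fold in the same direction under SD condition, 58 (17.8%) had an SD fold within 0.5 of 0, and 49 (15.1%) fell in between. The remaining 8 (2.46%) were above 2-fold in the opposite direction. The SD pair called 404 of the 13076 members bright under SD (3.09%), 204 higher (1.56%) and 200 lower (1.53%), about the same share as the LD pair.

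The differences absent under SD were smaller than the shared ones. Their median size was 1.17 on the log2 scale, against 2.58 for the shared ones and 1.54 for those dim under SD. In 1 of the 58 the dimmer LD signal was under 100, against 65 of the 210 shared ones and 26 of the 123 dim ones. The 58 held 28 probe sets higher and 30 lower in hd1-3.

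**Figure D2:**
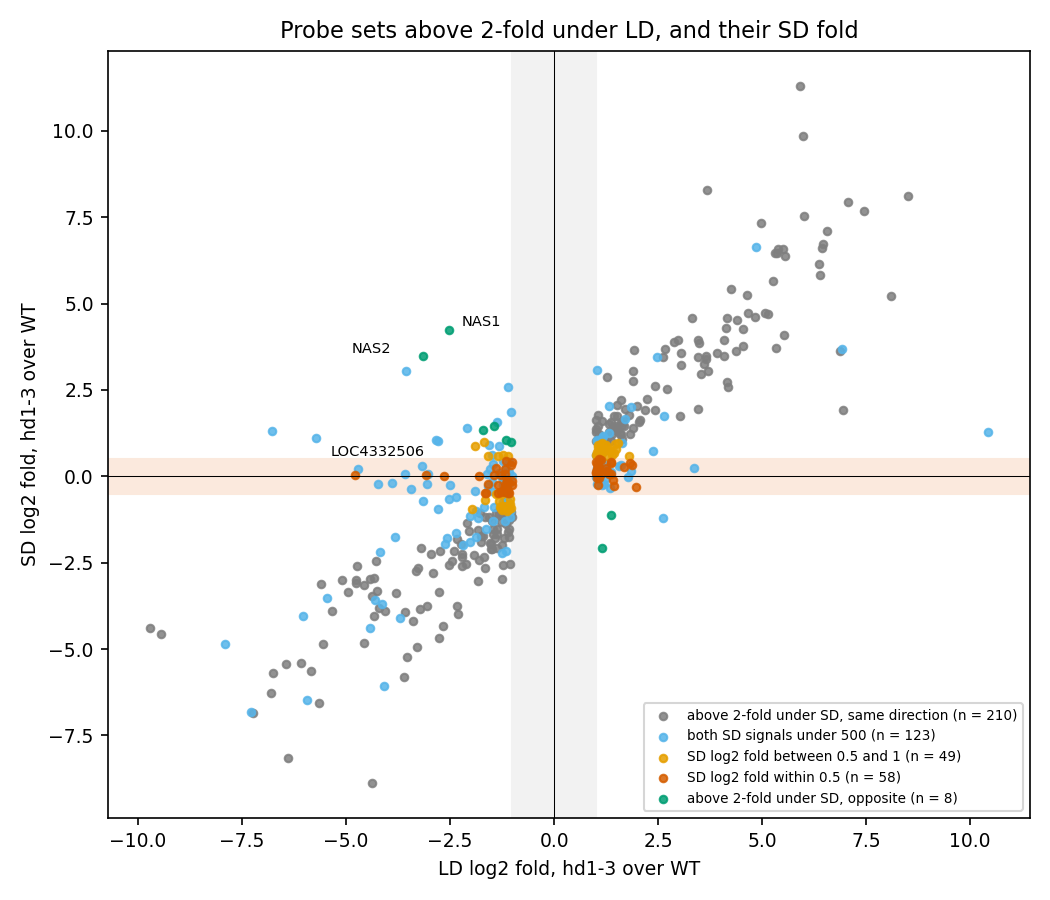
LD log2 fold (horizontal axis) against SD log2 fold (vertical axis), hd1-3 over WT, for the 448 probe sets above 2-fold under LD condition, 1 point each, coloured by class. The 210 shared ones run along the diagonal to the largest folds, the 58 absent ones lie in the band within 0.5 of the horizontal zero line, and the 8 opposite ones, NAS1 and NAS2 among them, lie in the other quadrants.

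The absent class was chosen for an LD difference above 2-fold beside an SD fold within 0.5 of 0, so its LD arrays tend to be the extremes by that choice. Of the 30 lower in hd1-3, the WT LD array was the highest of the 4 arrays in 24 and the hd1-3 LD array was the lowest in 24. Their median signals were 688 in hd1-3 and 1743 in WT under LD condition, against 1111 in hd1-3 and 1213 in WT under SD condition. Of the 28 higher in hd1-3, the hd1-3 LD array was the highest in 24 and the WT LD array the lowest in 22. Their medians were 1385 in hd1-3 and 612 in WT under LD condition and 973 in hd1-3 and 809 in WT under SD condition. The SD medians lay between the LD ones, as the choice favours.

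Among the genes of the absent class lower in hd1-3, the largest fold belonged to LOC4332506. It is annotated as an asparagine synthetase, the kind of enzyme that makes the amide asparagine for nitrogen transport. Its signal was 70.0 in hd1-3 and 1952 in WT under LD condition and 738 in hd1-3 and 723 in WT under SD condition. The LD fold was -4.78 and the SD fold 0.03, and with signals under 100 raised to 100 the gene was 19.5-fold lower in hd1-3 under LD condition. The hd1-3 LD array was the lowest of the 4 and the WT LD array the highest, with both SD signals between them.

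Several others are annotated with proteins of defence. LOC4352487, annotated as a pathogenesis-related protein of the Bet v I family, had 1135 in hd1-3 and 7053 in WT under LD condition and 669 in hd1-3 and 659 in WT under SD condition (folds -2.64 and 0.02). Here the WT LD array was the single high one. LOC4352488, of the same family and 2 places away on chromosome 12, had 723 in hd1-3 and 2102 in WT under LD condition, but 486 in hd1-3 and 416 in WT under SD condition, so it was counted as dim under SD. PBZ1, another gene of pathogenesis-related proteins, had a smaller LD fold of -0.58.

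BBTI4, a Bowman-Birk trypsin inhibitor of the kind that blocks digestive proteases of insects, had 3851 in hd1-3 and 12077 in WT under LD condition and 6187 in hd1-3 and 8673 in WT under SD condition. Its neighbours on chromosome 1, 1 place away on either side, differed in the same direction. BBTI3 had 253 in hd1-3 and 1295 in WT under LD condition and 253 in hd1-3 and 387 in WT under SD condition. RBTI had 2264 in hd1-3 and 7158 in WT under LD condition and 3057 in hd1-3 and 4889 in WT under SD condition. The LD folds of the 3 genes were -2.35 (BBTI3), -1.65 (BBTI4) and -1.66 (RBTI), and their SD folds -0.61, -0.49 and -0.68, so BBTI4 lay just inside the limit for an absent SD difference. Genes of 1 family can share probe signal, and how far this holds for the Bet v I and trypsin inhibitor genes was not tested.

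The chitinase gene Rcb4, of the enzymes that cut fungal cell walls, had 1427 in hd1-3 and 3615 in WT under LD condition and 2825 in hd1-3 and 3387 in WT under SD condition. LOC_Os11g11960, annotated as an RPM1 disease resistance protein, had 637 in hd1-3 and 1976 in WT under LD condition and 520 in hd1-3 and 733 in WT under SD condition. Their LD folds were -1.34 and -1.63. For Rcb4 the hd1-3 LD array was the low one, whereas for LOC_Os11g11960 the WT LD array was the high one.

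Genes of metabolism were also among the 10 lowest. LOC4341445, a 3-ketoacyl-CoA synthase of the family that elongates very long fatty acids, had 678 in hd1-3 and 1716 in WT under LD condition and 910 in hd1-3 and 1269 in WT under SD condition. LOC4347994, an O-methyltransferase by its annotation, had 557 in hd1-3 and 1345 in WT under LD condition and 1177 in hd1-3 and 1157 in WT under SD condition. NAAT1, nicotianamine aminotransferase of the path to the iron chelators of grasses, had 1157 in hd1-3 and 2606 in WT under LD condition and 1743 in hd1-3 and 1508 in WT under SD condition. LOC_Os12g13340, of no stated function, and LOC_Os01g35330, with the putative annotation of a circumsporozoite protein precursor, had LD folds of -1.60 and -1.39. For all 5 the SD fold was within 0.5 of 0, from -0.48 to 0.23.

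Of the smaller differences in this direction, LOC4329294, annotated as flowering promoting factor-like 1, had 689 in hd1-3 and 1550 in WT under LD condition and 2122 in hd1-3 and 2027 in WT under SD condition. LOC9268661, an oligopeptide transporter by annotation, had 687 in hd1-3 and 1401 in WT under LD condition and 928 in hd1-3 and 737 in WT under SD condition. These genes were chosen after their values were seen. Of the probe sets with no gene, 2 were very bright. One had 2285 in hd1-3 and 19388 in WT under LD condition and 8847 in hd1-3 and 8636 in WT under SD condition. The other had 7022 in hd1-3 and 24538 in WT under LD condition and 12765 in hd1-3 and 12606 in WT under SD condition. Both had SD signals between the LD ones.

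Among the probe sets of the absent class higher in hd1-3, 4 of 28 were above 3-fold, against 7 of 30 in the other direction. The largest LD folds were 1.96 and -4.78, but the median sizes were close, 1.11 for the higher and 1.17 for the lower ones. LOC_Os01g17050, a VQ domain protein of the family that partners WRKY factors, had 1670 in hd1-3 and 429 in WT under LD condition and 627 in hd1-3 and 770 in WT under SD condition. CML15, a calmodulin-like calcium sensor, had 1971 in hd1-3 and 619 in WT under LD condition and 968 in hd1-3 and 809 in WT under SD condition. LOC4325662, annotated as a CACTA transposon protein, had 4043 in hd1-3 and 1097 in WT under LD condition and 1504 in hd1-3 and 1202 in WT under SD condition. On each of these the hd1-3 LD array was the highest, and their LD folds were 1.96, 1.67 and 1.88.

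LOC_Os03g52070, the serine carboxypeptidase homologue OsSCP20, had 1262 in hd1-3 and 357 in WT under LD condition and 778 in hd1-3 and 600 in WT under SD condition. LOC4336616, annotated as the lipid transfer protein LTPL122, had 849 in hd1-3 and 311 in WT under LD condition and 435 in hd1-3 and 525 in WT under SD condition. LOC4328930, a molybdenum cofactor biosynthesis protein by annotation, had 1062 in hd1-3 and 400.0 in WT under LD condition and 1314 in hd1-3 and 1415 in WT under SD condition. For LOC4328930 it was the WT LD array that was low, since hd1-3 under LD lay below both SD signals.

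Of sugar-transferring enzymes, LOC_Os06g18010 (a UDP-glucosyl transferase) had 2802 in hd1-3 and 1078 in WT under LD condition and LOC4330672 (glycosyl transferase family 8) 1849 in hd1-3 and 718 in WT. Their SD folds were 0.43 and 0.38, near the upper limit for an absent difference. LOC4334438 and LOC4330169 completed the 10 highest with LD folds of 1.36 and 1.33. Both had a further bright probe set that differed less, with LD folds of 0.13 and -0.28, so these 2 rest on a single probe set. For LOC4334438 the gene and the locus name pointed to different chromosomes. Some named genes rest on probe sets of ambiguous type, marked _x_at, _s_at or _a_at. Of the 10 highest these were LOC_Os01g17050, LOC4325662, LOC_Os03g52070, LOC4336616 and LOC4334438. Of the 10 lowest they were LOC_Os11g11960, LOC_Os01g35330 and LOC4341445. Without such probe sets the absent class held 33 in place of 58.

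**Figure D3:**
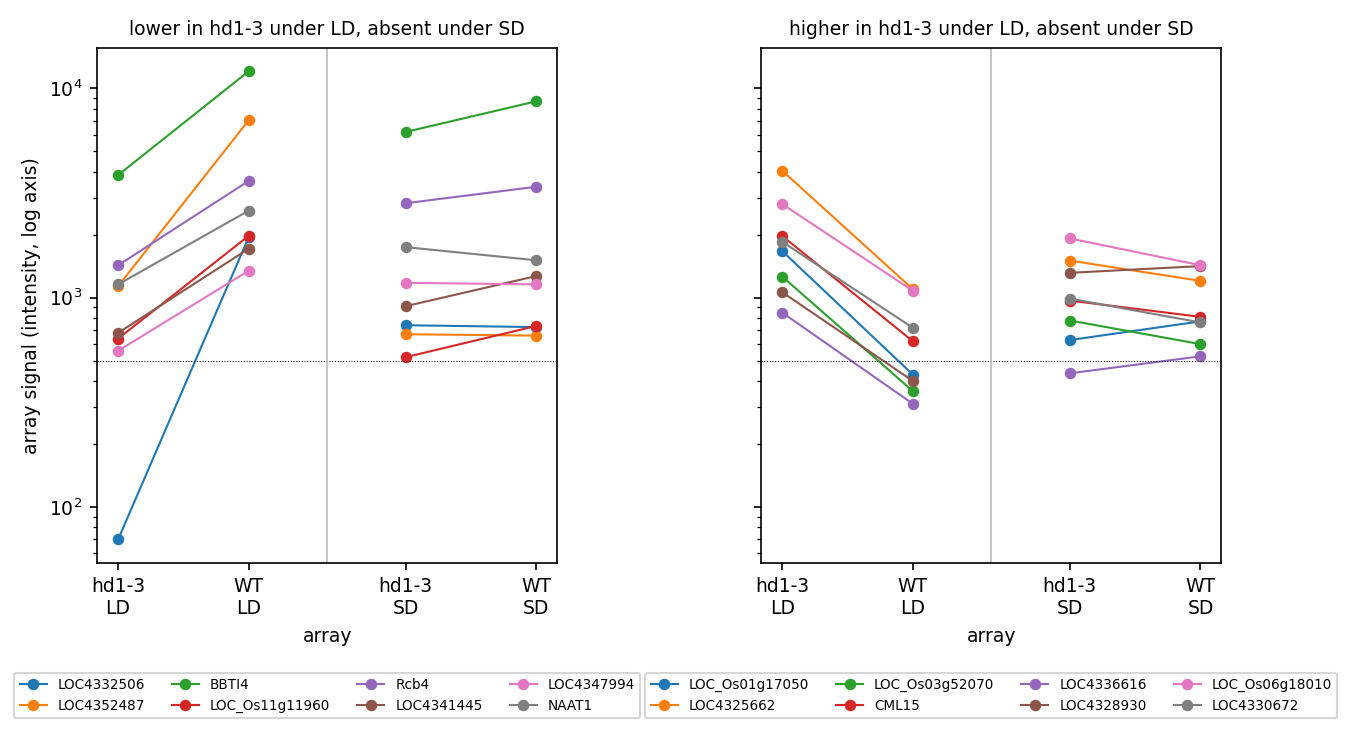
Signal (vertical log axis) on the hd1-3 LD, WT LD, hd1-3 SD and WT SD arrays for 8 genes lower and 8 genes higher in hd1-3 under LD condition and within 0.5 of 0 under SD condition, 1 array per point, lines joining the 2 genotypes of a day length, dotted line at 500. The LD lines are steep and the SD lines nearly flat, as for LOC4352487 with 1135 and 7053 under LD condition and 669 and 659 under SD condition.

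LOC4339101, annotated as spotted leaf 11, the name of a U-box ubiquitin ligase of rice, had 2 probe sets in the class, with 998 and 1543 in hd1-3 against 482 and 726 in WT under LD condition. LOC4333208, a leucoanthocyanidin dioxygenase of flavonoid synthesis by annotation, had 2390 in hd1-3 and 992 in WT under LD condition and 1361 in hd1-3 and 1215 in WT under SD condition. Both were named after their values were seen. Of the 37 genes in the class, 8 had a further bright probe set. These were 11 probe sets, 10 of which differed in the same direction and 1 by more than 2-fold. That 1 was the second probe set of LOC4339101, itself in the class. No further probe set outside the class passed 2-fold.

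By chromosome, the absent class and the shared class had different shares. Of the 38 probe sets of the absent class with a known gene, 8 were on chromosome 2 (21.1%), 8 on chromosome 3 (21.1%), 6 on chromosome 5 (15.8%), 2 on chromosome 6 (5.26%) and 3 on chromosome 11 (7.89%). Of the 118 shared ones with a known gene, 30 were on chromosome 6 (25.4%) and 19 on chromosome 11 (16.1%). Of all members with a gene, 12.3% were on chromosome 2, 14.6% on chromosome 3, 8.50% on chromosome 5, 7.77% on chromosome 6 and 4.12% on chromosome 11. These shares are counts with no test, and those of the absent class rest on few probe sets.

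The 8 probe sets that turned round between the day lengths were led by 2 neighbouring genes of nicotianamine synthase, which makes the metal chelator nicotianamine. NAS2 had 127 in hd1-3 and 1144 in WT under LD condition and 2009 in hd1-3 and 181 in WT under SD condition. NAS1 had 166 in hd1-3 and 959 in WT under LD condition and 2839 in hd1-3 and 149 in WT under SD condition. The high arrays of both were WT under LD and hd1-3 under SD. The 2 genes can share probe signal. NAS3, the third member, did not follow them, with 1184 in hd1-3 and 1309 in WT under LD condition and 2955 in hd1-3 and 3383 in WT under SD condition.

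The other 6 were smaller. Lower in hd1-3 under LD and higher under SD were the peroxidase LOC_Os07g48020, with 3414 in hd1-3 and 9290 in WT under LD condition and 3935 in hd1-3 and 1435 in WT under SD condition, and the glutathione S-transferase LOC4349188, with 255 in hd1-3 and 828 in WT under LD condition and 955 in hd1-3 and 373 in WT under SD condition. LOC4330940, annotated as saccharopine dehydrogenase of lysine breakdown, had 544 in hd1-3 and 1114 in WT under LD condition and 764 in hd1-3 and 380 in WT under SD condition, and its second probe set showed the same pattern with LD and SD folds of -1.33 and 0.88. Higher in hd1-3 under LD and lower under SD were LOC9271668, with 1494 in hd1-3 and 668 in WT under LD condition and 761 in hd1-3 and 3180 in WT under SD condition, and the retrotransposon locus LOC_Os01g16130, with 1176 in hd1-3 and 455 in WT under LD condition and 663 in hd1-3 and 1450.1 in WT under SD condition. The remaining one had no gene.

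The iron and nicotianamine genes were then read as a list of 29 genes, matched by symbol. Under LD condition 1 was above 2-fold higher in hd1-3 and 4 lower, where 2.29% of all 10199 genes were above 2-fold (1.10% higher and 1.20% lower) and 2.28% of the 9449 genes bright under SD were so under SD condition. The median LD fold of the list was -0.15, against -0.00 over all genes, and 37.9% of its folds were above 0. For the 23 of these genes bright enough under SD condition the median there was 0.14. Besides NAS1, NAS2 and NAAT1, the fourth lower gene was Nramp1, a metal transporter for iron, with 190 in hd1-3 and 1715 in WT under LD condition and 291 in hd1-3 and 236 in WT under SD condition. WT under LD was thus the single bright array for Nramp1, whose LD fold was -3.16.

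Below the 2-fold limit, YSL12, of the transporters of metal chelates, had 2174 in hd1-3 and 4240 in WT under LD condition and 1416 in hd1-3 and 988 in WT under SD condition. MT4A, a metallothionein, had 6554 in hd1-3 and 11963 in WT under LD condition and 10329 in hd1-3 and 9918 in WT under SD condition. Their LD folds were -0.96 and -0.87. In the other direction NRAMP6, of the same family as Nramp1, had 833 in hd1-3 and 462 in WT under LD condition and 442 in hd1-3 and 331 in WT under SD condition, an LD fold of 0.85. YSL12, MT4A and NRAMP6 were chosen after their values were seen. The gene higher in hd1-3 was ARD1, acireductone dioxygenase of methionine recycling, with 1482 in hd1-3 and 608 in WT under LD condition and 1269 in hd1-3 and 174 in WT under SD condition. On this probe set ARD1 was higher in both day lengths, unlike the 4 lower genes. A dimmer probe set of ARD1, of ambiguous type, had LD and SD folds of 0.12 and -0.47.

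In the differences dim under SD, the LD signal of 1 genotype stood above all others. For all 80 lower in hd1-3 the WT LD array was the highest of the 4, with medians of 200.1 in hd1-3 and 740 in WT under LD condition and 148 in hd1-3 and 275 in WT under SD condition. For all 43 higher in hd1-3 the hd1-3 LD array was the highest, with medians of 665 in hd1-3 and 273 in WT under LD condition and 330 in hd1-3 and 203 in WT under SD condition. The class is defined by both SD signals being under 500, so the LD array had to be the highest. At such signals an SD fold is rough. With signals under 100 raised to 100, 38 of the 123 (30.9%) were also above 2-fold under SD condition, 37 of them in the LD direction, and 10 had both SD signals at or under 100.

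The receptor kinase gene LOC4335460, of the cysteine-rich family by its annotation, had 179 in hd1-3 and 3366 in WT under LD condition, but 225 in hd1-3 and 265 in WT under SD condition. ASMT1, acetylserotonin O-methyltransferase of melatonin synthesis, had 70.4 in hd1-3 and 1410 in WT under LD condition and 28.4 in hd1-3 and 350.1 in WT under SD condition. LOC4349113 had 60.5 in hd1-3 and 1604 in WT under LD condition, and LOC_Os02g43370, annotated as a transposon protein, had 111 in hd1-3 and 1222 in WT. For LOC4335460, LOC4349113 and LOC_Os02g43370 the WT LD array was the single high one, whereas ASMT1 was brighter in WT under both day lengths.

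Peroxidases, which oxidise phenolic compounds in the wall, were found by key word in the annotation after the values were seen. In the dim class 4 were lower in hd1-3, among them LOC_Os07g48010 with 148 in hd1-3 and 1331 in WT under LD condition and LOC4324556 with 756 in hd1-3 and 2225 in WT. With LOC_Os07g48020 of the opposite class these made 5 of 5 lower outside the shared class, while the 2 of the shared class were higher in hd1-3. The annotation text is held for only part of the members, 506 probe sets of which 51.6% were above 2-fold, so these counts have no background.

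The dim class also held CBF3 (DREB1A), a factor of the cold response, with 402 in hd1-3 and 844 in WT under LD condition and 107 in hd1-3 and 217 in WT under SD condition. LOC9270250, annotated as a 9-cis-epoxycarotenoid dioxygenase of the kind that cuts the precursor of abscisic acid, had 478 in hd1-3 and 1305 in WT under LD condition and 205 in hd1-3 and 382 in WT under SD condition. For CBF3 and LOC9270250 hd1-3 was the lower of each pair, with SD folds of -1.01 and -0.89. LOC4350821, annotated as the wound-induced protein WIP3, had 951 in hd1-3 and 401 in WT under LD condition and 184 in hd1-3 and 191 in WT under SD condition. LOC9270250 and LOC4350821 were chosen after their values were seen and belong to no list. Also higher in hd1-3 were the chitinases Cht3, with 1925 in hd1-3 and 533 in WT under LD condition and 331 in hd1-3 and 81.5 in WT under SD condition, and Cht4, with 557 in hd1-3 and 223 in WT under LD condition and 330 in hd1-3 and 79.7 in WT under SD condition. A second probe set of Cht3 had an LD fold of 1.31, but both are of the ambiguous type _x_at. Of the 9 genes of chitinases and pathogenesis-related proteins, 2 (Cht3 and Cht4) were thus higher and 1 (Rcb4) lower under LD condition, with a median fold of -0.30. That was 33.3% above 2-fold in a list of 9 genes, against 2.29% of all genes. The list was matched by symbol and leaves out LOC4352487 and LOC4352488 of the Bet v I family. Both were lower in hd1-3 under LD condition, with folds of -2.64 and -1.54.

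The others of the named genes higher in hd1-3 were LOC_Os09g25139, LOC4335658, LOC4352505 and LOC4335798, of unstated function, with LD folds from 1.85 to 2.64. LOC4352505 rests on 1 dim probe set, with 1375 in hd1-3 and 265 in WT under LD condition. Its 2 far brighter ones were nearly alike there, with 20101 and 27831 in hd1-3 against 20703 and 27883 in WT (folds -0.04 and -0.00). Under SD condition these 2 were bright and above 2-fold lower in hd1-3, with 1898 and 4207 in hd1-3 against 4462 and 8796 in WT. LOC4352505 was thus dim under SD on the 1 probe set only. LOC4335658 had 539 in hd1-3 and 86.1 in WT under LD condition but 85.1 in hd1-3 and 197 in WT under SD condition. A probe set with no gene had the largest LD fold of the class, with 2912 in hd1-3 and 1.11 in WT under LD condition, and 80.8 in hd1-3 and 32.6 in WT under SD condition.

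Jasmonate is a wound and defence hormone made from fatty acids by lipoxygenases, allene oxide synthase (AOS) and allene oxide cyclase (AOC), and JAZ proteins repress its response. Of 27 jasmonate genes 2 were above 2-fold higher and 2 lower in hd1-3 under LD condition, with a median fold of 0.06. That was 14.8% above 2-fold, against 2.29% of all genes. The lower ones were neighbours on chromosome 8. CM-LOX1, a chloroplast lipoxygenase, had 202 in hd1-3 and 2430 in WT under LD condition and 406 in hd1-3 and 386 in WT under SD condition, and CM-LOX2 had 314 in hd1-3 and 731 in WT under LD condition and 161 in hd1-3 and 176 in WT under SD condition. These 2 can share probe signal. Their SD folds were 0.07 and -0.13.

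The later steps and most JAZ genes were closer between the genotypes. AOS had 680 in hd1-3 and 616 in WT under LD condition, and AOC 8982 in hd1-3 and 7888 in WT. Of the JAZ genes, JAZ8 had 7479 in hd1-3 and 7092 in WT under LD condition, while JAZ10 had 6320 in hd1-3 and 3257 in WT and JAZ13 760 in hd1-3 and 376 in WT. Under SD condition JAZ10 had 1829 in hd1-3 and 1682 in WT. The second higher gene, OPR10 of the oxophytodienoate reductase family, was 2227 in hd1-3 and 46.7 in WT under LD condition and 1069 in hd1-3 and 11.7 in WT under SD condition, so it belonged to the shared class.

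**Figure D4:**
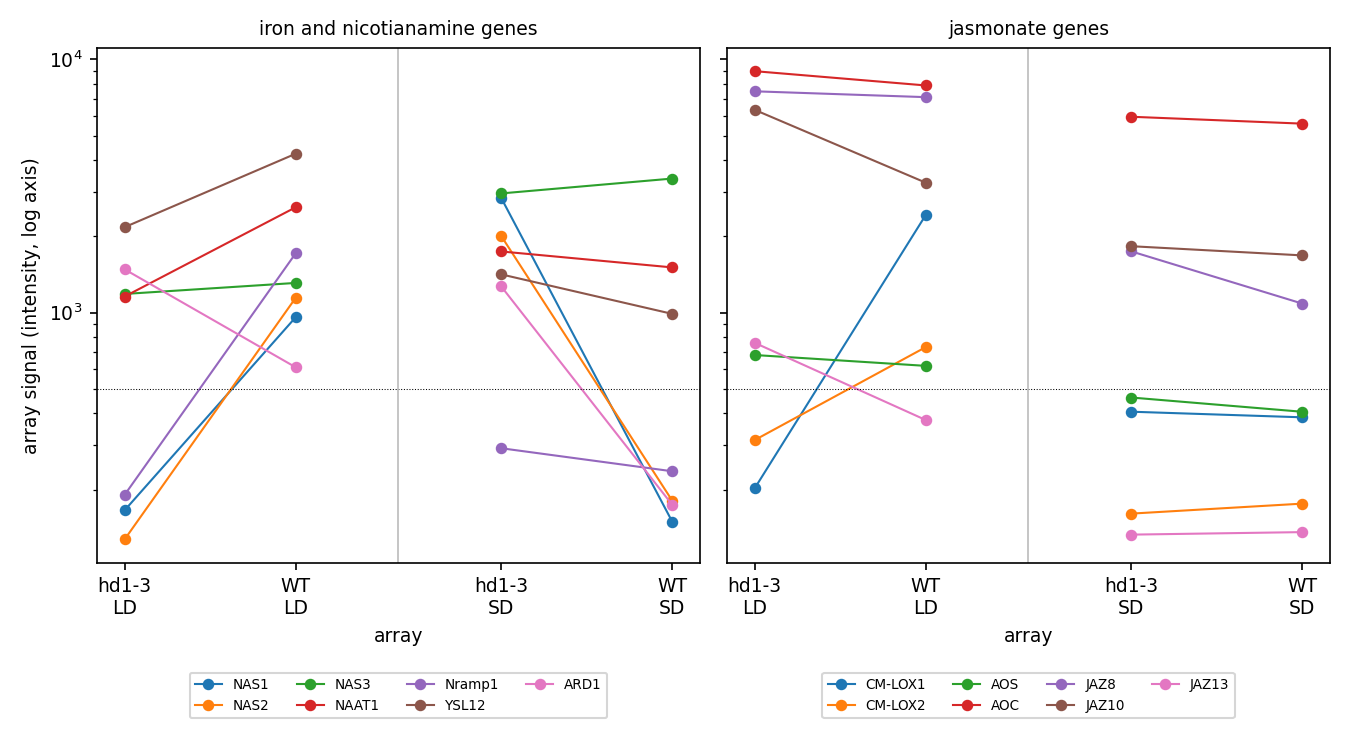
Signal (vertical log axis) on the hd1-3 LD, WT LD, hd1-3 SD and WT SD arrays for 7 iron and nicotianamine genes and 7 jasmonate genes, 1 array per point, lines joining the 2 genotypes of a day length, dotted line at 500. NAS1 and NAS2 cross between the day lengths, with hd1-3 below WT under LD condition and above it under SD condition, while CM-LOX1 and Nramp1 reach 500 on the WT LD array alone.

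Most cell wall genes were higher in hd1-3 by less than 2-fold. Of 39 cell wall genes 1 (2.56%) was above 2-fold higher in hd1-3 under LD condition and none was lower, where 2.29% of all genes were above 2-fold. Yet 82.1% of the folds were above 0, against 49.5% over all genes, with a median of 0.42. For the 35 of these genes bright enough under SD condition the median there was 0.24, with 80.0% above 0. In bulk leaves fewer cells of a type and less RNA per cell cannot be told apart, and this holds for every list here. The genes of a list share the 2 arrays and are no replicates, so no test was made.

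Cellulose synthase genes (CESA) showed it in every member. All 8 were higher in hd1-3, with a median LD fold of 0.59 and a range of 0.25 to 0.87, and a median SD fold of 0.44 with all 8 above 0. CESA7, a subunit for the secondary wall, had 6195 in hd1-3 and 3395 in WT under LD condition and 4397 in hd1-3 and 2925 in WT under SD condition. CESA4, of the same complex, had 5334 in hd1-3 and 3569 in WT under LD condition and 3765 in hd1-3 and 2645 in WT under SD condition. BC1, a COBRA-like protein that shapes the secondary wall, had 1752 in hd1-3 and 1141 in WT under LD condition and 1316 in hd1-3 and 1013 in WT under SD condition. The median LD fold was 0.66 for CESA4, CESA7, CESA9 and BC1 of the secondary wall and 0.48 for the CESA genes of the primary wall.

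The expansins, proteins that loosen the wall for growth, had their higher folds under LD condition. Of 7 genes 6 had a fold above 0 under LD condition, with a median of 0.57, and under SD condition 2 of the 6 bright enough were above 0, with a median of -0.03. EXPB4, the 1 gene above 2-fold, had 843 in hd1-3 and 399 in WT under LD condition and 547 in hd1-3 and 566 in WT under SD condition. It therefore belonged to the absent class, on a probe set of ambiguous type. EXPB3 had 6072 in hd1-3 and 3903 in WT under LD condition and 5191 in hd1-3 and 5139 in WT under SD condition. EXP2 had 1711 in hd1-3 and 1090.5 in WT under LD condition and 745 in hd1-3 and 878 in WT under SD condition. The median folds of the lignin branch (11 genes) and of the cellulose synthase-like genes (8 genes) were 0.35 and 0.29 under LD condition. Under SD condition they were 0.26 for the 9 lignin branch genes bright enough and 0.20 for the 8 cellulose synthase-like genes.

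**Figure D5:**
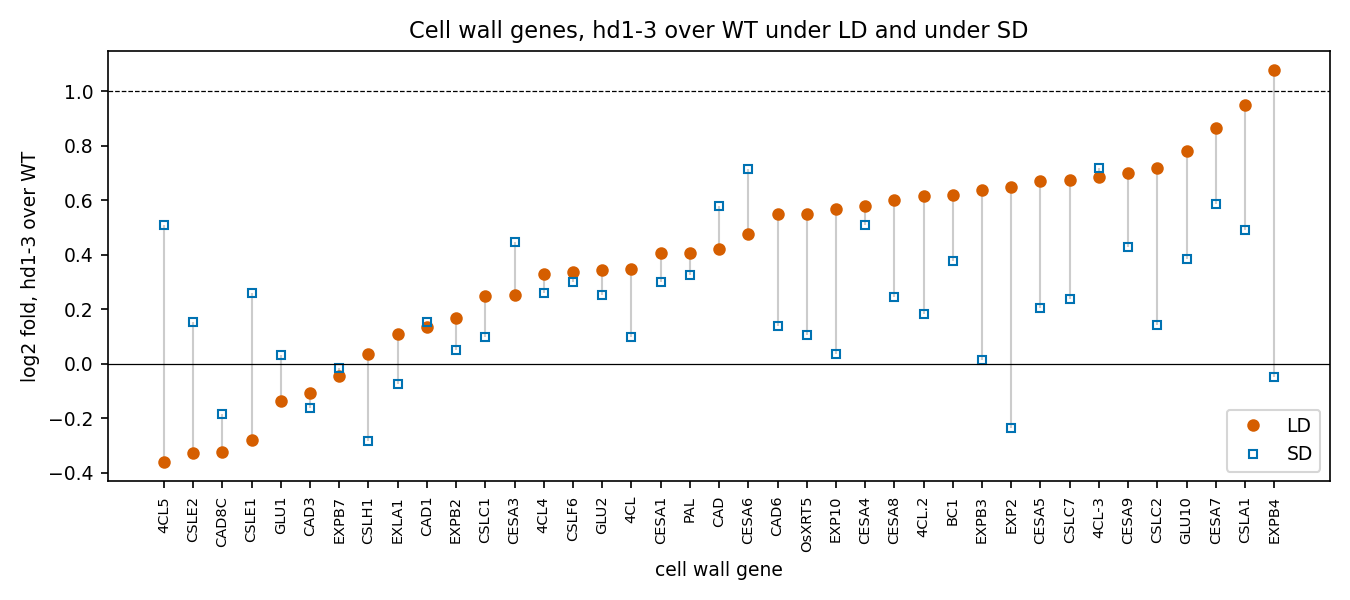
Log2 fold of hd1-3 over WT (vertical axis) for the 39 cell wall genes, ordered by their LD fold, with filled circles for LD and open squares for SD, and a dashed line at 2-fold. Most genes lie above 0 in both day lengths, and EXPB4, EXPB3 and EXP2 are above 0 under LD condition (1.08, 0.64 and 0.65) but near or below 0 under SD condition (-0.05, 0.01 and -0.24).

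Of the 18 genes of photoperiodic flowering at 500 or more, Hd3a alone (5.56%) was above 2-fold, against 2.29% of all genes. The signal of Hd3a was 700.4 in hd1-3 and 4.70 in WT under LD condition and 1116 in hd1-3 and 295 in WT under SD condition, which placed it in the shared class. MADS18, a MADS-box factor, had 4094 in hd1-3 and 2162 in WT under LD condition (fold 0.92), and MADS55 and MADS56, of the same family, had 718 and 1360 in hd1-3 against 1392 and 2299 in WT. The other 14, SPIN1, HO1, AGL20, Hd18, MADS47, GF14C, Ehd4, GI, DTH7, FCA, MADS22, AP2-1, CKI and Ehd3, had LD folds between -0.27 and 0.25. This range is for the probe set of highest mean LD signal of each gene. A second probe set of DTH7, with 436 in hd1-3 and 612 in WT, had an LD fold of -0.49. The dimmest probe set of Ehd3, under the limit of 500, had -0.57. Hd1 itself had 5.40 in hd1-3 and 89.3 in WT, both under 100. MADS14 also stayed under the limit of 500 under LD condition. Its brightest LD probe set had 429 in hd1-3 and 183 in WT (fold 1.23), and 618 in hd1-3 and 205 in WT under SD condition. Its dimmer probe sets, with WT LD signals under 100, had rough LD folds of 1.82, 1.90 and 2.15. Of the others under the limit, DTH8 had an LD fold of -0.11, and MADS15 and LFL1 were under 100 on both LD arrays.

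Of 10 clock and light input genes and 25 genes of light harvesting and photosynthesis, none was above 2-fold under LD condition, and their median folds were -0.08 and 0.04. The phototropin gene Osnph1a was the lowest of the first with a fold of -0.88, and GLK1, a factor for chloroplast development, the highest of the second with 5786 in hd1-3 and 3430 in WT under LD condition. In 16 other lists of 5 to 55 genes the median LD fold lay between -0.41 (AP2 and ERF transcription factors) and 0.13 (auxin), with 6 genes above 2-fold higher and 4 lower in all (CBF3 is in 2 lists), and 7 lists had none. Among these were the sucrose synthase SUS5, with 523 in hd1-3 and 233 in WT, and IAA23, an auxin response repressor, with 608 in hd1-3 and 272 in WT under LD condition. The share above 2-fold was 20% in the 5 AP2 and ERF genes and 6.25% for abscisic acid and dehydration. In the other lists with any it was 2.86% to 3.92%, against 2.29% of all genes.

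The shared differences, the largest class, are given here only by the genes of largest fold. Higher in hd1-3 under both day lengths were LOC_Os10g42020, LOC4346832, LOC4340879, OsC3H40 and LOC4341223, and lower were LOC_Os02g40240, LOC4341377, MSRB1, LOC4347323 and LOC4340994. MSRB1, a methionine sulfoxide reductase, had 109 in hd1-3 and 5357 in WT under LD condition and 1195 in hd1-3 and 10398 in WT under SD condition.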

How the data were processed

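Leaf RNA of hd1-3 and WT was measured on 4 Affymetrix Rice Genome Arrays. The authors ran MAS 5.0 on the scans, and the deposited values are linear signal intensities, 1 for each probe set. The sources used here do not name the software version. The values show that every array was scaled to a mean of 500 once 2% was trimmed at either end. Detection calls were not used here. The number of arrays, 1 per group, limits the precision.

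From these intensities 187 control probe sets of 57381 were left out. Folds were log2 of signal + 1 in hd1-3 over WT, with 100 as a floor where stated. LD differences were above 2-fold. They were called absent with an SD log2 fold within 0.5 and a brighter SD signal of 500 or more. No test was run. Alternatives were 32 added, the floor, quantile or median scaling, signal limits of 200 and 1000, folds of 1.5 and 3, SD limits of 0.25 and 1, 1 probe set per gene and no ambiguous probe sets.

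Genes and chromosomes came from the platform table and RefSeq (ASM3414082v1, names and gene order only). Locus names and descriptions came from a table of the study that covers only part of the array, so lists were matched by gene symbol and synonym. Symbols that matched another gene by a shared synonym were removed after the lists were first read. Named genes are the 10 highest and 10 lowest absent ones by the fold with the floor, the 5 highest and 5 lowest of the shared, opposite and dim ones, every flowering gene at 500 or more and 2 to 4 genes of a list. Most further names are stated as chosen afterwards, and the rest belong to a list, a neighbour or a second probe set. The members and lists were chosen with earlier results of these data known. For each gene 1 probe set was used in lists, the one with the highest mean LD signal. Counting was tested on simulated signals. Python 3.11.15, pandas 2.3.3, numpy 2.4.6 and matplotlib 3.10.9 were used.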

Additional observations from a re-analysis of the deposited data

Results flagged for a closer look

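The 8 probe sets above 2-fold in opposite directions under LD and SD are given by the LD log2 fold minus the SD log2 fold, hd1-3 over WT. They stand out because the array of 1 genotype was higher in one day length and lower in the other, and with 1 array per group this difference was not tested. The difference was -6.77 for NAS1, -6.63 for NAS2, -3.05 for LOC4349188, -2.90 for LOC_Os07g48020, -2.20 for a probe set with no gene (479 in hd1-3 and 1070.4 in WT under LD condition, 1150 in hd1-3 and 558 in WT under SD condition) and -2.04 for LOC4330940. It was 3.22 for LOC9271668 and 2.50 for LOC_Os01g16130. After quantile normalization, and with 32 added, 7 opposite probe sets were counted.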

How the results depend on the processing

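With 32 added, signals under 100 raised to 100, quantile normalization or median scaling on bright probe sets, the counts of differences above 2-fold (448), absent under SD (58), shared (210) and opposite (8) stayed within 1.5-fold. Other limits moved them. With a signal limit of 200 they were 944, 182, 398 and 11, and with 1000 they were 265, 26, 124 and 5. With 1 probe set per gene they were 234, 32, 100 and 5. Without ambiguous probe sets the absent count was 33. Above 1.5-fold they were 1347, 497, 436 and 37, and above 3-fold 230, 11, 137 and 2. With the SD limit at 0.25 and at 1 the absent count was 29 and 107. These counts follow from the limits, and the share of higher folds moved from 46.7% to between 43.5% and 55.8%. Of the gene lists, only the AP2 and ERF median moved by more than 0.23 on the log2 scale, to 0.18 with a limit of 200. Of 196 values of named genes, 174 moved by less than that, 21 by more in the same direction and past 2-fold, and LOC4330940 with 32 added was just under 2-fold at -0.99. No paired analysis was possible because each group holds 1 array, and for the same reason no array could be left out. Signals under 100 give only a rough fold.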

Other observations

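The 49 probe sets whose SD fold lay between 0.5 and 1 held 28 higher and 21 lower in hd1-3 under LD condition. The neighbouring isoflavone reductase genes LOC4326148 and LOC4326149 had 10689 and 6467 in hd1-3 against 4839 and 3211 in WT under LD condition, and their SD folds were 0.82 and 0.61. The laccase LAC4, of the enzymes that couple lignin units, had 2069 in hd1-3 and 928 in WT under LD condition and 1618 in hd1-3 and 842 in WT under SD condition. The water channel OsPIP2;5 had 704 in hd1-3 and 257 in WT under LD condition and 579 in hd1-3 and 360 in WT under SD condition. Lower in hd1-3 were the wall-associated kinases LOC4335593 (OsWAK60), with 664 in hd1-3 and 1735 in WT under LD condition, and LOC4348206 (OsWAK112d), with 364 in hd1-3 and 903 in WT. All were chosen after their values were seen.

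The lipoxygenase LOX1.1 lay just outside the signal limit, with 70.5 in hd1-3 and 498 in WT under LD condition and 9.75 in hd1-3 and 6.23 in WT under SD condition. Like CM-LOX1 and CM-LOX2, it was brightest on the WT LD array. LOX5 was also brightest there but by little, with 1452 in hd1-3 and 1588 in WT under LD condition, while LOX2 had 1215 in hd1-3 and 1214 in WT. LOX3 was under 100 on all 4 arrays.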
